A study of Homo sapiens with 5 samples.

Results

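The 8 genes described here encode p63 and transcription factors that act with it or after it in the epidermis: TP63, GRHL1, GRHL2, GRHL3, OVOL1, KLF4, ZNF750 and PRDM1. They were taken by symbol from a fixed list, and all 8 had a row among the 27933 gene symbols of the table. Their RNA was measured in HaCaT, an established line of immortalised human keratinocytes, in 2 control libraries (labelled NC) and 3 libraries labelled AHNAK knockdown (KD). AHNAK is a giant scaffold protein found at the plasma membrane, and the series title ties it to oncostatin M receptor signalling and to keratinocyte proliferation and differentiation. Total RNA came from cells grown in serum-containing DMEM, and the labels do not give the interfering sequence, the time after its delivery or whether replicates were separate cultures. P-values therefore measure only the spread between these libraries, which may be technical. The title and labels speak of a knockdown where the design text of the series says knockout.

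The epidermis renews itself from a basal layer of dividing keratinocytes, which leave that layer, stop dividing and build the cornified barrier. p63 is the factor that keeps the basal layer and opens the chromatin of epidermal genes, and its main keratinocyte form lacks the N-terminal transactivation domain and is called ΔNp63. The grainyhead-like factors GRHL1 to GRHL3 hold the epithelial state and drive barrier genes, OVOL1 is a zinc finger repressor that takes cells out of proliferation, KLF4 is a zinc finger factor needed for the barrier, ZNF750 is a p63-induced factor of late differentiation, and PRDM1 is a repressor found in the upper, granular layer.

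Values are FPKM (fragments per kilobase of transcript normalised to the fragments of the library), so levels of different genes can be set side by side per length. FPKM sums ran from 374214.8 to 420540.9 per library, and the read depth is unknown. For AHNAK itself the control mean was 223.4 ± 26.3 FPKM (SD, n = 2) and the knockdown mean 99.6 ± 26.0 FPKM (SD, n = 3), with no overlap (limma, Benjamini-Hochberg adjusted p = 0.372). The libraries fell into 2 sets by the steps between low values. The commonest ratio of low values held for 17.0% to 25.1% of low genes between libraries of the same set and for at most 3.96% between sets. Set A holds control replicate 1 and knockdown replicates 1 and 3, and set B holds control replicate 2 and knockdown replicate 2. No label describes the sets, and differences within each set are given as A and B beside the pooled ones. All 13 keratinocyte markers examined had a mean of at least 1 FPKM. Their sum was lower in every knockdown library (4371.8 to 5809.4 FPKM) than in both controls (5908.2 to 7273.4 FPKM), and KRT14 was the most abundant of them. KRT14, KRT5 and SFN made up most of the sum, with control means of 2704.5, 2037.9 and 991.1 FPKM. The markers did not move together. PERP, COL17A1, KRT10, EPCAM, KRT1 and CDH1 had log2 differences (knockdown minus control) of 0.15 to 0.51, and the others were below 0. Of 7 fibroblast markers 3 had a mean of at least 1 FPKM, and PDGFRA was at 0 in both controls. Their summed levels were 3.30 to 5.02 FPKM in controls and 6.12 to 10.2 FPKM in knockdown libraries. These markers did not move together either. DCN (1.37 and 0 FPKM against 1.83, 5.25 and 2.25 FPKM) and COL3A1 were higher in every knockdown library. COL1A1 was lower in every one (1.94 and 2.47 FPKM against 1.78, 1.28 and 1.59 FPKM). The melanocyte marker TYR was at 0 in every library, and the summed levels of 5 melanocyte markers were 3.18 to 3.52 and 2.60 to 3.12 FPKM. PMEL and DCT were lower in every knockdown library, and MITF overlapped between groups. MLANA was higher in every one (0.319 and 0.291 FPKM against 0.602, 0.647 and 0.447 FPKM). Of 6 immune markers 1 (CD68) had a mean of at least 1 FPKM, with sums of 16.2 to 18.3 and 21.2 to 28.8 FPKM, and PTPRC was at 0 in both controls. The 4 endothelial markers summed to 2.08 to 2.98 and 2.06 to 2.98 FPKM. The part of these differences in the results below was not tested. In bulk RNA, fewer cells of a type and less RNA per cell cannot be told apart.

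The 8 factors spanned a wide range of levels in HaCaT. TP63 was the most abundant, with a mean of 35.8 FPKM over the 5 libraries, above 89.1% of the 20410 genes detected in any library. GRHL2 (16.1 FPKM), KLF4 (14.4), OVOL1 (11.5) and GRHL3 (10.5) followed, and the library ranges of neighbours in this order overlapped. GRHL1 averaged 5.72 FPKM, and its highest library (6.55) was below the lowest of GRHL3 (8.12). ZNF750 and PRDM1, the factors of the latest layers, were near the floor at means of 0.234 and 0.0542 FPKM. These 2 did not reach the mean of 1 FPKM asked for testing, which left 6 of the 8 among 12196 tested genes.

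**Figure D1:**
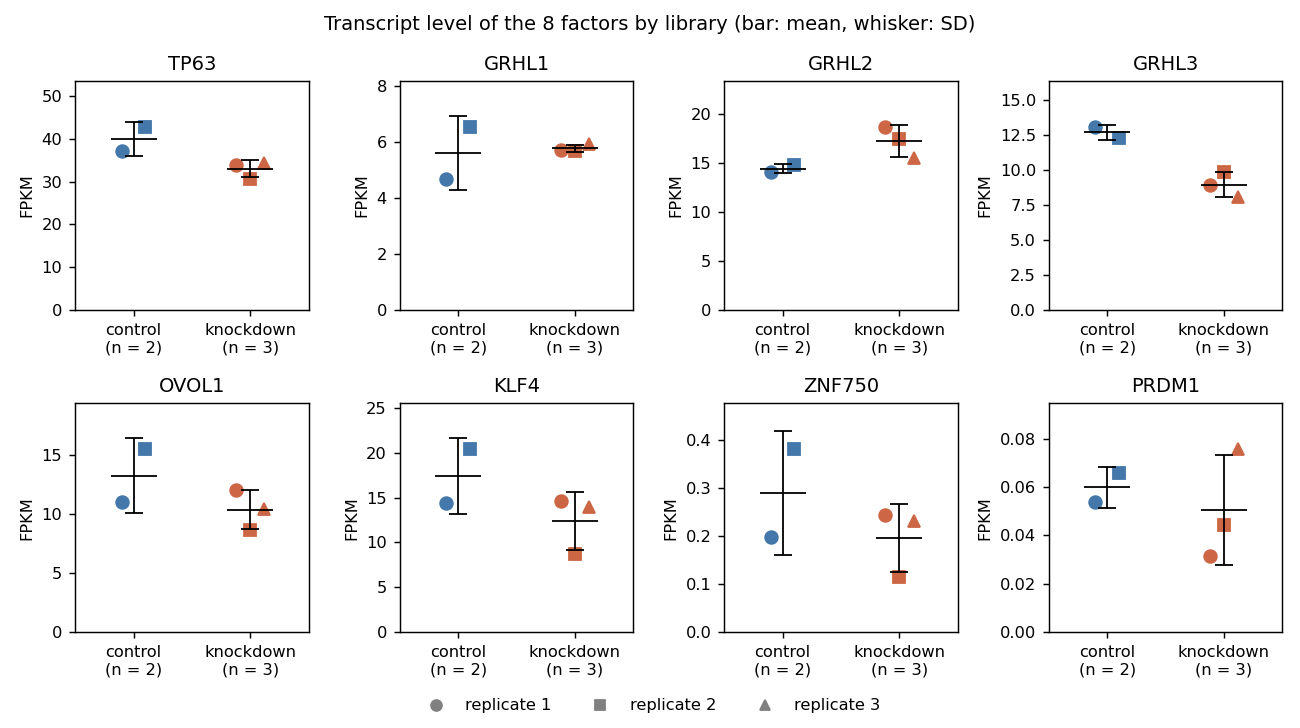
Transcript levels (FPKM, linear axes from 0) of the 8 factors in 2 control libraries (blue) and 3 AHNAK knockdown libraries (orange); horizontal bars are means, whiskers SD, and marker shapes the replicate numbers. TP63 and GRHL3 were lower and GRHL2 higher in every knockdown library than in both controls, and the other 5 factors overlapped between groups.

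Between knockdown and control, 3 of the 6 tested factors had groups that did not overlap. TP63 and GRHL3 were lower and GRHL2 was higher in all 3 knockdown libraries. Over all tested genes the groups did not overlap in 32.0% (15.8% lower and 16.2% higher). No factor passed the test over all genes. Limma on log2(FPKM + 0.5) called 0% of the 12196 genes at a Benjamini-Hochberg adjusted p under 0.05. At an unadjusted p under 0.05 it took 11.7% of all tested genes and 1 of the 6 factors, GRHL3. The log2 difference (knockdown minus control) was below 0 for 4 of the 6, where 48.7% of all tested genes were below 0. The median was -0.30 for the 6 factors and 0.01 for all tested genes, with -0.01 and 0.00 for all genes in sets A and B. For the 6 factors it was 0.01 for set A and -0.39 for set B.

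TP63 (ENSG00000073282.12, chromosome 3, 189631416 to 189897279, plus strand, GRCh38, GENCODE 29) stood at 37.1 and 42.8 FPKM in control replicates 1 and 2. It stood at 34.0, 30.7 and 34.4 FPKM in knockdown replicates 1, 2 and 3. Every knockdown library was thus below both controls, and the widest gap was between the libraries of set B. The control mean was 39.9 ± 4.06 FPKM (SD, n = 2) and the knockdown mean 33.0 ± 2.06 FPKM (SD, n = 3), which is 0.827 times the control. On the log2 scale TP63 differed by -0.27 (SE 0.13, 95% confidence interval -0.59 to 0.05; limma, Benjamini-Hochberg adjusted p = 0.482). The difference within set A was -0.11 and within set B -0.47. Without control replicate 2 it was -0.17.

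A gene-level FPKM adds the forms of p63 together. GENCODE 29 lists 12 protein-coding TP63 transcripts. Of these, 5 start between 189631427 and 189631516, and 7 start far downstream, between 189789660 and 189789801, inside the gene. The downstream start is the one known for the ΔN form. Which start the fragments came from was not analysed here, so the lower TP63 value cannot be assigned to a form. The start that RefSeq's table (GRCh38.p14) gives for TP63 is the upstream one, and its window from 250 bases before to 50 bases after the start is shown because it is the promoter of the full-length form and not of ΔNp63.
TP63 upstream start, chr3:189631139-189631438, plus strand: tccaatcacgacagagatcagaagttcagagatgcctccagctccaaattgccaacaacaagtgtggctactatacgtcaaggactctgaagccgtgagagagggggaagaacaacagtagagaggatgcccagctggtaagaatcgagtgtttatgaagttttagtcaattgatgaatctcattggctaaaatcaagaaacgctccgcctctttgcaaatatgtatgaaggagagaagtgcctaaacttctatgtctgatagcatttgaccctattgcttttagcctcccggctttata
The window has 43.7% G and C, against a median of 58.7% over the table's 35116 windows. It is in lower case throughout because none of 7 motifs searched on both strands was found in it. These were the letters CATG repeated with 6 bases between (paired cores of the p63 element, in 0.373% of all windows), AACCNGTT (grainyhead-like, 1.73%), CCGTTA (OVO-like, 3.07%), CACCC (the KLF box, 59.9%), TGANTCA (AP-1, 7.71%), CCNNAGGC (ZNF750, 27.5%) and CACCTG (an E-box, 20.6%). The absence says only that these letters are not in this window.

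Of the 3 grainyhead-like genes, GRHL3 was lower and GRHL2 higher in every knockdown library, and GRHL1 overlapped between groups. GRHL3, which drives barrier genes such as TGM1 and acts in wound closure, stood at 13.1 and 12.3 FPKM in the control libraries, and knockdown replicates 1, 2 and 3 had 8.91, 9.90 and 8.12 FPKM. The lowest control was above the highest knockdown library by more than 2 FPKM. The control mean was 12.7 ± 0.57 FPKM (SD, n = 2) and the knockdown mean 8.98 ± 0.892 FPKM (SD, n = 3), which is 0.706 times the control. GRHL3 differed by -0.48 on the log2 scale (SE 0.14, 95% confidence interval -0.81 to -0.16), with an unadjusted p of 0.0101 and a limma Benjamini-Hochberg adjusted p of 0.387. GRHL3 was the only one of the 6 whose interval left out 0. The log2 differences were -0.60 for set A and -0.30 for set B. Groups that do not overlap fix the sign within each set, so the shared sign adds no evidence.

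GRHL2 (ENSG00000083307.11, chromosome 8, 101492432 to 101669726, plus strand), the member that maintains E-cadherin and tight junction genes in epithelia, lay on the other side of 0. The control libraries had 14.1 and 14.8 FPKM, and knockdown replicates 1, 2 and 3 had 18.7, 17.5 and 15.5 FPKM. Knockdown replicate 3 lay just above the higher control, and the other two lay further out. GRHL2 differed by 0.24 on the log2 scale (SE 0.13, 95% confidence interval -0.08 to 0.56; limma, Benjamini-Hochberg adjusted p = 0.526). The differences within sets A and B were 0.26 and 0.23. GRHL1 (ENSG00000134317.17, chromosome 2, 9951693 to 10002277, plus strand), a regulator of desmosomal cadherins, stood at 4.69 and 6.55 FPKM in controls and at 5.73, 5.70 and 5.92 FPKM in knockdown libraries. All 3 knockdown libraries lay between the controls. Its log2 difference was 0.05 (SE 0.16, 95% confidence interval -0.34 to 0.44; limma, Benjamini-Hochberg adjusted p = 0.912), and it was -0.17 without control replicate 1.

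Because the scaling of a library cancels in a ratio of 2 of its own genes, GRHL2 was also set against GRHL3 within each library. This ratio was chosen after the values had been seen and is a description. GRHL2 was at 1.08 and 1.20 times the FPKM of GRHL3 in control replicates 1 and 2. In knockdown replicates 1, 2 and 3 it was at 2.09, 1.77 and 1.91 times. The geometric means were 1.14 and 1.92, and the log2 ratio differed by 0.75, with SDs of 0.11 (n = 2) and 0.12 (n = 3). GRHL3 made up 41.1% and 36.6% of the summed FPKM of the 3 genes in controls and 26.8%, 29.9% and 27.5% in knockdown libraries. GRHL2 made up 44.2% and 44.0% in controls and 56.0%, 52.9% and 52.4% in knockdown libraries. The sum itself overlapped between groups, at 31.9 and 33.7 FPKM in controls and 33.3, 33.1 and 29.5 FPKM in knockdown libraries.

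**Figure D2:**
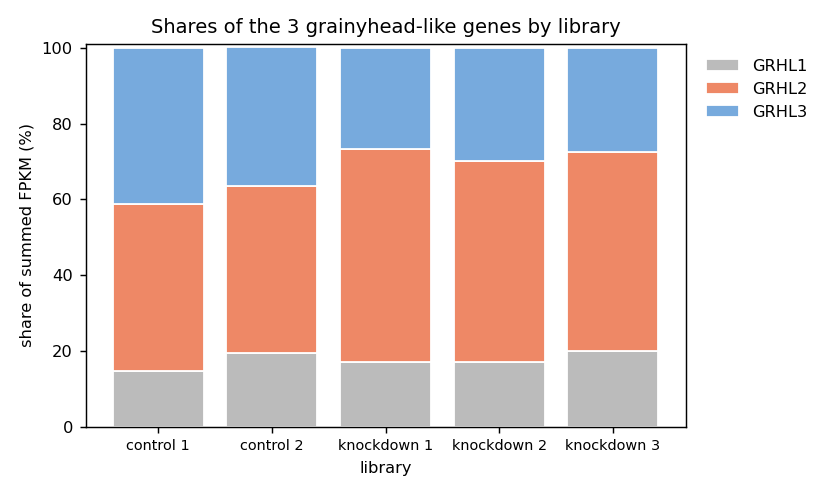
Share of each grainyhead-like gene in the summed FPKM of GRHL1, GRHL2 and GRHL3 (percent, vertical axis from 0), 1 stacked bar per library. GRHL3 takes 36.6% or more in both controls and 29.9% or less in the 3 knockdown libraries, and GRHL2 takes 44.2% or less and 52.4% or more.

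GRHL3 (ENSG00000158055.15, chromosome 1, 24319322 to 24364482, plus strand) has 2 groups of starts in GENCODE 29. There are 4 coding transcripts starting between 24319322 and 24319814 and 1 starting at 24323040. RefSeq's table gives a window for each, shown here because GRHL3 differed most clearly of the 6, with matches to the motifs above in capitals.
GRHL3 upstream start, chr1:24319107-24319406, plus strand: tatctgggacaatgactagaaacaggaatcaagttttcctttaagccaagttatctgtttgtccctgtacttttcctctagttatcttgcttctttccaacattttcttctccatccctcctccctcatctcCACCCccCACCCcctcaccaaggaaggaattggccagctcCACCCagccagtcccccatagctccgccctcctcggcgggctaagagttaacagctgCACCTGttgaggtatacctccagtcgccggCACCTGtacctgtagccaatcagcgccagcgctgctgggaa
GRHL3 downstream start, chr1:24322790-24323089, plus strand: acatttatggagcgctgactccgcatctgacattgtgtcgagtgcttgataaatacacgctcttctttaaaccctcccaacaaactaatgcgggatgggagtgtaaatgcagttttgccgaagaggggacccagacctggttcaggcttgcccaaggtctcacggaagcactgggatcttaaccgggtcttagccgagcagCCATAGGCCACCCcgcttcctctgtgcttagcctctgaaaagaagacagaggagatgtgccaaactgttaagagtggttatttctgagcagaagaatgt
The upstream window held 3 CACCC boxes, starting at bases -118, -111 and -78 relative to the start, and 2 CACCTG E-boxes on either side of it. The downstream window held 1 CCNNAGGC match overlapping 1 CACCC box. Neither held the paired p63 cores, the grainyhead-like, OVO-like or AP-1 letters. CACCTG was searched after the windows had been read, and a match is a description of letters, not a binding site. STPG1 lies on the opposite strand across the 3′ part of GRHL3, at 3.77 and 4.25 FPKM in controls and 3.76, 3.14 and 3.62 FPKM in knockdown libraries. Whether counting used strand is not given in the sources used here, so reads of this overlap cannot be told apart.

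OVOL1 and KLF4, which push keratinocytes from proliferation to differentiation, were lowest in the same knockdown library and overlapped between groups. KLF4 (ENSG00000136826.14, chromosome 9, 107484852 to 107490482, minus strand) stood at 14.4 and 20.4 FPKM in the control libraries, against 14.6, 8.69 and 13.9 FPKM for knockdown replicates 1, 2 and 3. Control replicate 2 was the highest and knockdown replicate 2 the lowest, and the other three lay close together. The control mean was 17.4 ± 4.21 FPKM (SD, n = 2) and the knockdown mean 12.4 ± 3.22 FPKM (SD, n = 3). KLF4 differed by -0.49 on the log2 scale (SE 0.26, 95% confidence interval -1.10 to 0.13; limma, Benjamini-Hochberg adjusted p = 0.501). The difference within set A was -0.02 and within set B -1.18, and it was -0.24 without control replicate 2 and -0.26 without knockdown replicate 2. KLF4 thus had the widest range of the 6 tested factors, 1.18 on the log2 scale.

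OVOL1 (ENSG00000172818.9, chromosome 11, 65787022 to 65797219, plus strand) ordered the libraries in a similar way. The control libraries had 11.0 and 15.5 FPKM, and knockdown replicates 1, 2 and 3 had 12.0, 8.68 and 10.4 FPKM. Control replicate 2 was again the highest and knockdown replicate 2 the lowest. Its log2 difference was -0.33 (SE 0.20, 95% confidence interval -0.81 to 0.15; limma, Benjamini-Hochberg adjusted p = 0.550). The differences within sets A and B were 0.03 and -0.80. Without control replicate 2 it was -0.09. AHNAK was itself highest in control replicate 2 (242.0 FPKM) and lowest in knockdown replicate 2 (69.6 FPKM), against 204.8, 113.9 and 115.3 FPKM in control replicate 1 and knockdown replicates 1 and 3. Whether the factors follow the AHNAK level was not tested. The antisense gene OVOL1-AS1 lies inside OVOL1, at 1.45 and 2.11 FPKM in controls and 1.30, 1.16 and 1.49 FPKM in knockdown libraries, and its reads cannot be told apart from those of OVOL1 without strand.

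ZNF750, which is induced by p63 and turns on late differentiation genes together with KLF4, had 0.199 and 0.381 FPKM in the control libraries, against 0.243, 0.115 and 0.231 FPKM for knockdown replicates 1, 2 and 3. Here too control replicate 2 was the highest and knockdown replicate 2 the lowest, at levels where few fragments decide a value. ZNF750 (ENSG00000141579.6, chromosome 17, 82829435 to 82840578, minus strand) lies within TBCD, which is on the opposite strand at 16.6 to 26.6 FPKM. PRDM1 (ENSG00000057657.16, chromosome 6, 106086320 to 106109939, plus strand) was at 0.0539 and 0.0658 FPKM in controls and at 0.0315, 0.0443 and 0.0757 FPKM in knockdown libraries, with both extremes among the knockdown libraries. It lies within ATG5 on the opposite strand, at 8.03 to 12.7 FPKM. Neither was tested with the filter. Without a filter the log2 differences were -0.18 and -0.03, and the limma Benjamini-Hochberg adjusted p were 0.685 and 0.870.

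**Figure D3:**
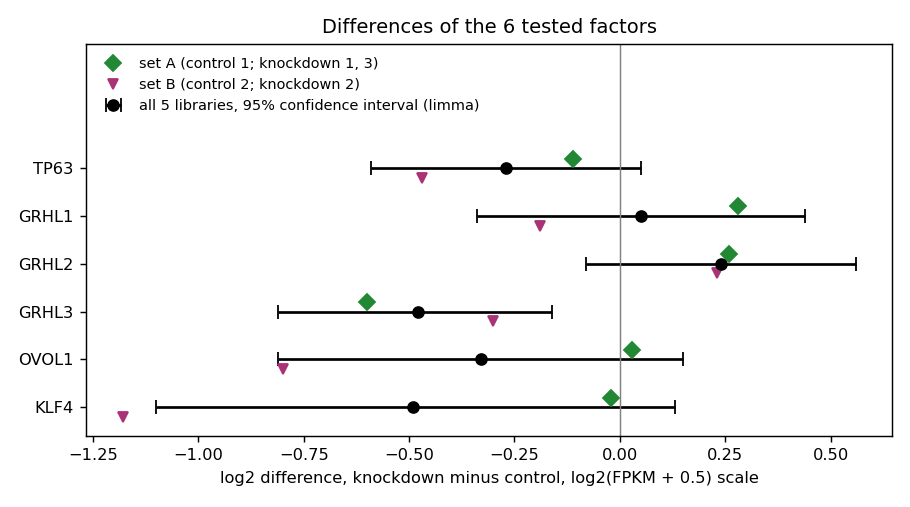
Log2 difference (knockdown minus control, log2(FPKM + 0.5) scale) of the 6 tested factors, with limma estimates over all 5 libraries and their 95% confidence intervals (black), and the differences within set A (diamonds) and set B (triangles). GRHL3 alone has an interval that leaves out 0, and KLF4 and OVOL1 are near 0 in set A. GRHL2 is above 0 and TP63 and GRHL3 are below 0 in both sets, as groups that do not overlap require.

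Genes whose values followed those of a factor most closely were sought among the 8677 tested genes averaging 5 FPKM or more. The measure was the largest difference over the 5 libraries between log2(FPKM + 0.5) values centred on each gene's own mean. Closest to TP63 were CAPG, an actin-capping protein (largest difference 0.046), ARHGEF12 (0.047), and RFX5, a factor of MHC class II promoters (0.052). Closest to GRHL3 were TMCC3 (0.054), PPP2R5B, a regulatory subunit of protein phosphatase PP2A (0.067), and SLC36A1, an amino acid transporter (0.075). Closest to GRHL2 were GOLGA2, a Golgi matrix protein (0.047), RPP25L (0.047) and ZSCAN29 (0.049). None of the 6 tested factors was among the 3 closest genes of another. The closest of 8677 genes over only 5 libraries are a description, and shared control was not tested.

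Genes that p63 is known to control were mostly lower in the knockdown libraries, without any passing the test. The list was chosen with earlier results of these data known, so setting it beside all genes is not an unbiased comparison. It was not split by whether p63 raises or lowers a gene, so the count does not measure p63 activity. Of 29 tested p63 target genes 23 had a log2 difference below 0 and 6 above, where 48.7% of all tested genes were below 0. Their median was -0.23 (set A -0.10, set B -0.31). In 13 the groups did not overlap with knockdown lower, and in 2 with knockdown higher, beside the 15.8% and 16.2% of all tested genes given above. Limma called 0 of the 29 over all genes, and 7 had an unadjusted p under 0.05, all lower. Of all tested genes 11.7% had such a p in either direction. The median was -0.124 without control replicate 2 and -0.142 without knockdown replicate 2. After a correction for GC content and length, chosen after seeing the data, it was -0.137. The summed keratinocyte markers given above, which share KRT14 and other genes with this list, were lower in the same libraries, and their part in this count was not tested. BNC1, a zinc finger factor of basal keratinocytes, was at 30.3 and 28.6 FPKM in controls and at 23.4, 19.0 and 15.9 FPKM in knockdown libraries, a log2 difference of -0.60 that was similar in both sets (-0.64 and -0.58). DST, which anchors keratins at hemidesmosomes, was at 8.67 and 9.27 FPKM against 6.83, 6.45 and 6.89 FPKM, a difference of -0.39 (A -0.32, B -0.49). The ends of the list, named after their values were seen, were CDKN1A, the cell cycle inhibitor p21, at -1.02 (set A -0.38, set B -2.04), and PERP, a desmosomal protein, at 0.51 (set A 0.97, set B -0.06). KRT14 and EGFR, also named after their values were seen, were among the 7 with an unadjusted p under 0.05, at -0.70 (A -0.26, B -1.38) and -0.59 (A -0.63, B -0.53), and reads of KRT14 may be shared with closely related keratins. FRAS1, the target below the filter, was at 0.0103 FPKM or less in every library.

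Targets of the grainyhead-like factors were evenly divided. Of 12 tested, 6 were above and 6 below 0, with a median of -0.01 (set A -0.07, set B -0.08), and with each library left out it ran from -0.107 (without control replicate 1) to 0.022 (without knockdown replicate 3). The groups did not overlap in 4 with knockdown lower and in 1 with knockdown higher, beside 15.8% and 16.2% of all tested genes. Limma called 0 over all genes and 1 of the 12 had an unadjusted p under 0.05, near the 11.7% of all tested genes. That was TGM1, the transglutaminase that crosslinks the cornified envelope and a known GRHL3 target, at 7.70 and 9.36 FPKM in controls and 7.05, 4.98 and 5.68 FPKM in knockdown libraries. Its log2 difference was -0.50 (A -0.26, B -0.85; SE 0.18; limma, Benjamini-Hochberg adjusted p = 0.395). ERBB3, a receptor of the EGF family, was at 14.9 and 12.9 FPKM against 18.0, 22.4 and 16.0 FPKM, a difference of 0.41 (A 0.18, B 0.77). ESRP2, a splicing factor of epithelia, differed by -0.22 (A -0.30, B -0.09). DSG1, the desmosomal cadherin that GRHL1 controls, was at 0.133 to 0.186 FPKM and was not tested.

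Differentiation genes that these factors switch on lay on both sides of 0, and many were close to undetected. Of the 24 with a row, 13 were tested, and among the 11 others were late markers such as LOR and CASP14. LOR was at 0.26 FPKM or less. CASP14 was below the filter but not undetected, and was higher in every knockdown library. It was at 0.675 and 0.16 FPKM in controls against 1.02, 2.05 and 1.05 FPKM (A 0.38, B 1.95). ALOXE3, also below the filter, was lower in every knockdown library, at 1.32 and 0.836 FPKM against 0.586, 0.696 and 0.35 FPKM. Of the 13, 7 were above 0 and 6 below, with a median of 0.15 (A 0.27, B 0.06) and a mean of 0.20. Limma called 0 over all genes, and 3 higher and 2 lower had an unadjusted p under 0.05, which 11.7% of all tested genes had. The groups did not overlap in 5 with knockdown higher and in 3 with knockdown lower, beside 16.2% and 15.8% of all tested genes. The median was -0.117 without control replicate 1, 0.268 without control replicate 2 and 0.077 without knockdown replicate 2, and it was 0.055 without a filter. IVL (involucrin), an envelope precursor, was higher in every knockdown library (log2 difference 0.85, set A 0.46, set B 1.47), and FLG (filaggrin), which bundles keratin in the granular layer, was lower in every one (-0.93, set A -1.33, set B -0.39). SPRR1A, named as the upper end of the list, was at 12.4 and 1.20 FPKM in controls and 14.5, 35.2 and 16.5 FPKM in knockdown libraries. Its difference of 2.16 had within-set values of 0.30 (A) and 4.39 (B), and its reads may be shared with the close copy SPRR1B. It was the gene of the list that passed without control replicate 1 (log2 difference 3.62; limma, Benjamini-Hochberg adjusted p = 0.0149). That fit sets the 1 control library at 1.20 FPKM against the knockdown libraries and takes the spread from the knockdown group, so the lone control is assumed to vary like them.

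Other transcription factors of the epidermis lay on both sides of 0. Of 23 tested, 11 were above and 12 below 0 (median -0.01, mean 0.04, set A 0.14, set B 0.01), and with each library left out the median ran from -0.049 (without control replicate 1) to 0.095 (without control replicate 2). The groups did not overlap in 6 with knockdown higher and in 3 with knockdown lower, where 16.2% and 15.8% of all tested genes did the same. Limma called 0 over all genes, while 3 higher and 2 lower had an unadjusted p under 0.05 (11.7% of all tested genes). ELF3, an ETS factor of epithelial differentiation, was at 91.9 and 86.9 FPKM in controls and at 135.3, 172.0 and 125.1 FPKM in knockdown libraries. Its log2 difference was 0.67 (SE 0.17; limma, Benjamini-Hochberg adjusted p = 0.379). The differences within sets A and B were 0.50 and 0.98. GATA3, a zinc finger factor of the epidermal barrier, was at 22.7 and 9.23 FPKM against 29.8, 55.8 and 32.5 FPKM, a difference of 1.35 (set A 0.45, set B 2.53). BNC1, given above, was the lowest of the list.

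Chromatin regulators that work with these factors were also measured. Of 16 tested, 5 were above and 11 below 0, with a median of -0.09 (set A -0.10, set B -0.02). The median was -0.177 without knockdown replicate 1, -0.026 without knockdown replicate 3 and -0.039 without control replicate 1. In 6 the groups did not overlap with knockdown lower and in 1 with knockdown higher, against shares of 15.8% and 16.2% over all tested genes. Limma called 0 over all genes, and 1 in each direction had an unadjusted p under 0.05, near the 11.7% of all tested genes. HDAC1, a histone deacetylase that p63 needs for repression, was at 77.2 and 78.4 FPKM in controls and at 100.5, 122.6 and 124.7 FPKM in knockdown libraries, a log2 difference of 0.57 that was similar in both sets (0.53 and 0.64). KDM1A, a histone demethylase that ZNF750 recruits, was at 73.8 and 93.3 FPKM against 67.2, 41.8 and 60.1 FPKM, a difference of -0.58 (set A -0.22, set B -1.15). UHRF1, which keeps DNA methylation through division, differed by -0.68 (set A -0.93, set B -0.37).

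Of 9 mesenchymal genes that OVOL and grainyhead-like factors hold down, ZEB1, ZEB2, SNAI1, TWIST1 and VIM were below the filter. ZEB1 was at 0.0752 FPKM or less and VIM at 0.915 FPKM or less in every library. The 4 tested all had a log2 difference below 0, from -0.89 to -0.02, where 48.7% of all tested genes were below 0. Their median was -0.11 (A -0.27, B -0.10) and their mean -0.29. Limma called 0 over all genes, and 1 of the 4 had an unadjusted p under 0.05, which 11.7% of all tested genes had. The 1 gene was FN1 (fibronectin), at 9.08 and 6.04 FPKM in controls and 4.69, 4.55 and 2.45 FPKM in knockdown libraries. FN1 differed by -0.89 (A -1.29, B -0.37). Its groups did not overlap, with knockdown lower, as in 15.8% of all tested genes. The groups overlapped for the other three, among them SNAI2, a repressor that keeps keratinocytes undifferentiated, at -0.21 (A -0.07, B -0.43), and CDH2 (N-cadherin) at -0.02 (A -0.20, B 0.17). The median of the 4 was -0.229 without knockdown replicate 3, -0.203 without control replicate 2 and -0.055 without control replicate 1.

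**Figure D4:**
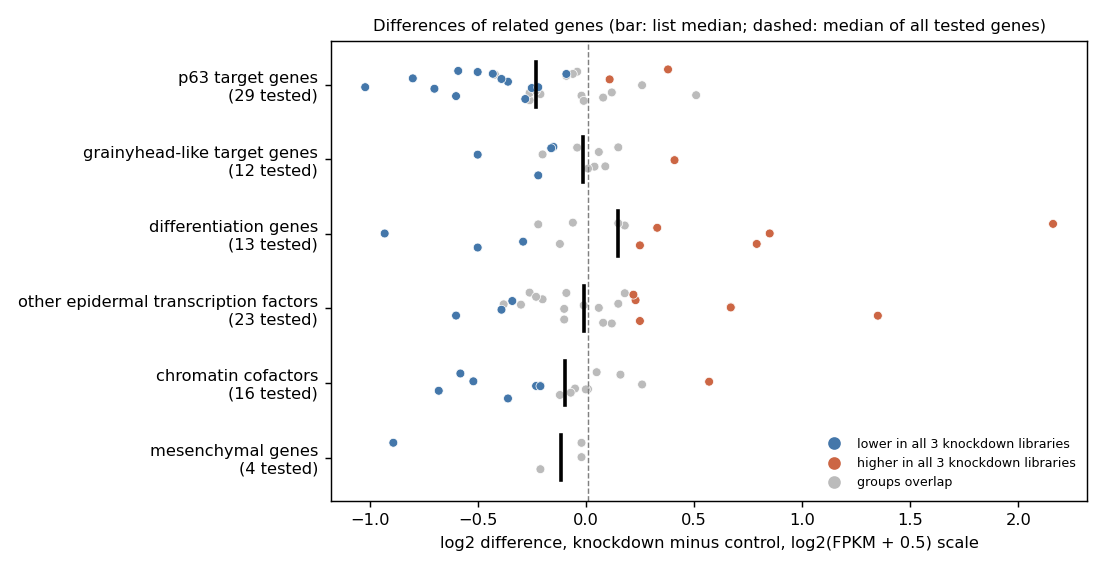
Log2 differences (knockdown minus control, log2(FPKM + 0.5) scale) of the tested genes in 6 lists; each point is a gene, coloured by whether the 2 control and 3 knockdown libraries overlap, black bars are list medians, and the dashed line is the median of all tested genes (0.01). The p63 target genes have a median of -0.23 with 13 of 29 lower in every knockdown library (15.8% of all tested genes were), and the other lists have medians between -0.11 and 0.15. The lists were chosen with earlier results of these data known.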

How the data were processed

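The authors deposited 1 table of FPKM values, holding 1 column for each library and 1 row for each symbol. HISAT2 2.0.1 and StringTie 2.0.6 were used per the submitters' processing notes, which name the builds GRCh38 and mm9 without a role. Annotation and strand setting: not given in the sources used here. Genes averaging 1 FPKM or more were tested as log2(FPKM + 0.5) with limma 3.58.1 in R 4.3.3 (eBayes with an intensity trend, no covariate), two-sided, with Benjamini-Hochberg adjustment over all 12196 tested genes and a threshold of 0.05. This scale understates changes of low genes. The step was also run on simulated data. These had independent noise in each value, without sets of libraries or a relation to GC content. That run therefore cannot show how the test behaves where those are present. Sets A and B were found by comparing values under 0.3 FPKM between libraries, with ratios rounded to 5 decimals. No count test was run, since the values are not counts. The members and lists were chosen with earlier results of these data known. Named genes were the 8 factors, AHNAK, the 3 non-members of smallest p in each of 6 lists, and the 3 genes closest in pattern; 1 gene that this rule names is not reported here. Alternatives changed the pseudocount, the filter, the scaling, the variance model and the library weights, added a set term or a replicate block, or left out each library. A loess correction (span 0.3) for GC content and length, from GENCODE 29 by symbol (96.5% of tested genes matched), was added after seeing the data. Gene coordinates came from GENCODE 29 and promoter windows from RefSeq, which held windows for 5 of the 8 factors.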

Additional observations from a re-analysis of the deposited data

How the results depend on the processing

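None of the 6 tested factors passed under any of 19 alternatives, and 113 of 114 of those fits kept the sign. The exception was GRHL1, whose log2 difference ran from -0.17 (without control replicate 1) to 0.27 with each library left out. A change of filter, variance model or threshold leaves a log2 difference as it was, so the sign could not change in those fits. The replicate block gave the factors the same log2 differences as leaving out knockdown replicate 3. The count of kept signs is therefore no measure of robustness. Limma Benjamini-Hochberg adjusted p came nearest the threshold with array weights, where knockdown replicate 2 had weight 3.975 and knockdown replicate 3 weight 0.2572 (GRHL3 0.0501, KLF4 0.0542, TP63 0.0631, GRHL2 0.0809, OVOL1 0.0901). Log2 differences ranged from -0.55 to -0.38 for GRHL3, from 0.18 to 0.31 for GRHL2, from -0.37 to -0.17 for TP63, from -0.82 to -0.24 for KLF4 and from -0.57 to -0.09 for OVOL1. AHNAK stayed lower and passed with array weights (-1.55). The weights also called 1428 of the 12196 tested genes. Beside these stood 9 of 29 p63 targets, 2 of 12 grainyhead-like targets and 3 of 13 differentiation genes. In the remaining lists 6 of 23 other transcription factors, 2 of 16 chromatin cofactors and 0 of 4 mesenchymal genes were called. Of all genes, 1 was called with a pseudocount of 1, without a trend, with robust empirical Bayes and at an adjusted p under 0.1, and 0 to 9 with each library left out. In the differentiation list 0 to 1 was called with each library left out. Genes with an unadjusted p under 0.05 numbered 862 at a mean of at least 5 FPKM, where fewer genes entered, 828 with the set term, 4285 with array weights, and 564 to 2092 with each library left out. The cause of the other changes was not tested.

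Whether the replicate numbers pair the libraries could not be settled. By value steps, control and knockdown replicate 1 shared set A, and control and knockdown replicate 2 shared set B. Deviations from the group means correlated across genes at -0.064 for replicate 1 and -0.578 for replicate 2. With 2 controls these deviations are mirror images, so control replicate 1 gave 0.578 with knockdown replicate 2. The correlations therefore cannot decide the pairing. The replicate block, on replicates 1 and 2 only, called 0 genes, with 972 at an unadjusted p under 0.05, and gave -0.42 for GRHL3, -0.30 for TP63 and 0.31 for GRHL2.

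Over genes, deviations of knockdown replicates 1 and 3 followed GC content at Spearman's rho of 0.605 and -0.549. After the loess correction GRHL3 was at -0.51 and TP63 at -0.30, and the median of the p63 targets moved from -0.226 to -0.137. With 2 and 3 libraries and no read totals, differences of the size seen for TP63, GRHL1, GRHL2, OVOL1 and KLF4 had intervals that included 0, and no counting error could be given for ZNF750 and PRDM1.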

Other observations

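DLX5, a homeobox factor of epidermal and craniofacial development, was singled out after its values were seen. It was at 5.07 FPKM in control replicate 2 and 5.45 FPKM in knockdown replicate 2, the 2 libraries of set B. Within set A, control replicate 1 had 0.182 FPKM, and knockdown replicates 1 and 3 had 1.00 and 0.702 FPKM. The libraries of DLX5 thus divided mainly by set. Within each set the knockdown libraries were higher, with log2 differences of 0.98 (A) and 0.10 (B). Over all 5 libraries its log2 difference between knockdown and control was 0.18 (95% confidence interval -2.17 to 2.53).

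2 microRNA loci tied to p63 had rows of their own. MIR203A, the locus of a microRNA known to repress p63 in differentiating keratinocytes, had 0.839 and 1.86 FPKM in the control libraries, against 1.03, 0 and 0.482 FPKM for knockdown replicates 1, 2 and 3. MIR944, which lies inside TP63 on the same strand, was at 0.0934 and 0.702 FPKM in controls and at 0.114, 0 and 0.955 FPKM in knockdown libraries. Both were below the filter, both were listed at 0 in knockdown replicate 2, and fragments of a host transcript cannot be told apart from the locus.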
